A study of Homo sapiens with 6 samples.

Results

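Genes of the epidermal growth factor (EGF) family and their ERBB receptors were followed in the human bladder carcinoma cell line T24. The set was defined by name as 5 ligand genes (HBEGF, EREG, AREG, TGFA and BTC), 3 receptor genes (EGFR, ERBB2 and ERBB3) and the feedback inhibitor gene ERRFI1. Its members were the array probe sets annotated to exactly 1 gene, that gene being one of the 9. This gave 29 of 49395 probe sets, which covered 8 of the 9 genes among 18132 in all: 12 probe sets for 4 ligands, 16 for the receptors and 1 for ERRFI1. AREG had no such probe set and was not analysed here. The treated group was T24 cells harvested 48 hours into MAP30 exposure at 10 µg/ml, on 3 Affymetrix arrays, and the control group was T24 cells labelled as normal, also on 3 arrays. MAP30, from bitter melon, is an enzyme that inactivates ribosomes. All cells were grown in DMEM with fetal bovine serum. Neither the handling of the control cells nor the origin of the replicates (separate cultures or not) is given in the sources, so p-values measure only the spread between these arrays, which may be technical.

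EGF-family ligands are made as membrane-anchored precursors, and proteases of the ADAM family cut them free from the cell surface. A free ligand joins receptors of the ERBB family into pairs, whose kinase domains then signal through RAS and the MAP kinases and through PI3 kinase. ERBB2 has no known ligand of its own and serves as a partner, while ERBB3 binds neuregulins but has little kinase activity. In urothelium this system is known for its part in wound repair and in bladder cancers. ERRFI1, also called MIG6, is a cytoplasmic protein that binds the EGFR kinase domain and dampens it after activation.

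The deposited values were log2 expression values in which each probe set had been centred on its median over the 6 arrays. A value is therefore a distance from that probe set's own median, on a log scale whose base is stated nowhere and was taken to be 2, and says nothing of how strongly the gene is expressed. For the same reason the urothelial identity of the cells could not be checked from levels. In RNA of a whole culture, fewer cells expressing a gene and less RNA per cell cannot be told apart.

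With MAP30, 3 of the 4 measured ligand genes were higher, 2 of the 3 receptor genes were lower, and the third receptor gene, EGFR, and the inhibitor gene ERRFI1 were higher. HBEGF rose 9.73-fold, ERRFI1 4.71-fold, EREG 1.90-fold, EGFR 1.40-fold and TGFA 1.28-fold. ERBB3 was 1.63-fold lower and ERBB2 1.32-fold lower. BTC did not pass the test. The test was limma across all 18132 genes, with a call at a Benjamini-Hochberg adjusted p under 0.05. By it, 57.5% of all genes were called, 26.9% as higher and 30.6% as lower, against 7 of the 8 measured members, 5 as higher and 2 as lower. The 3 MAP30 arrays and the 3 control arrays did not overlap in 62.6% of all genes and in 7 of the 8 members.

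**Figure D1:**
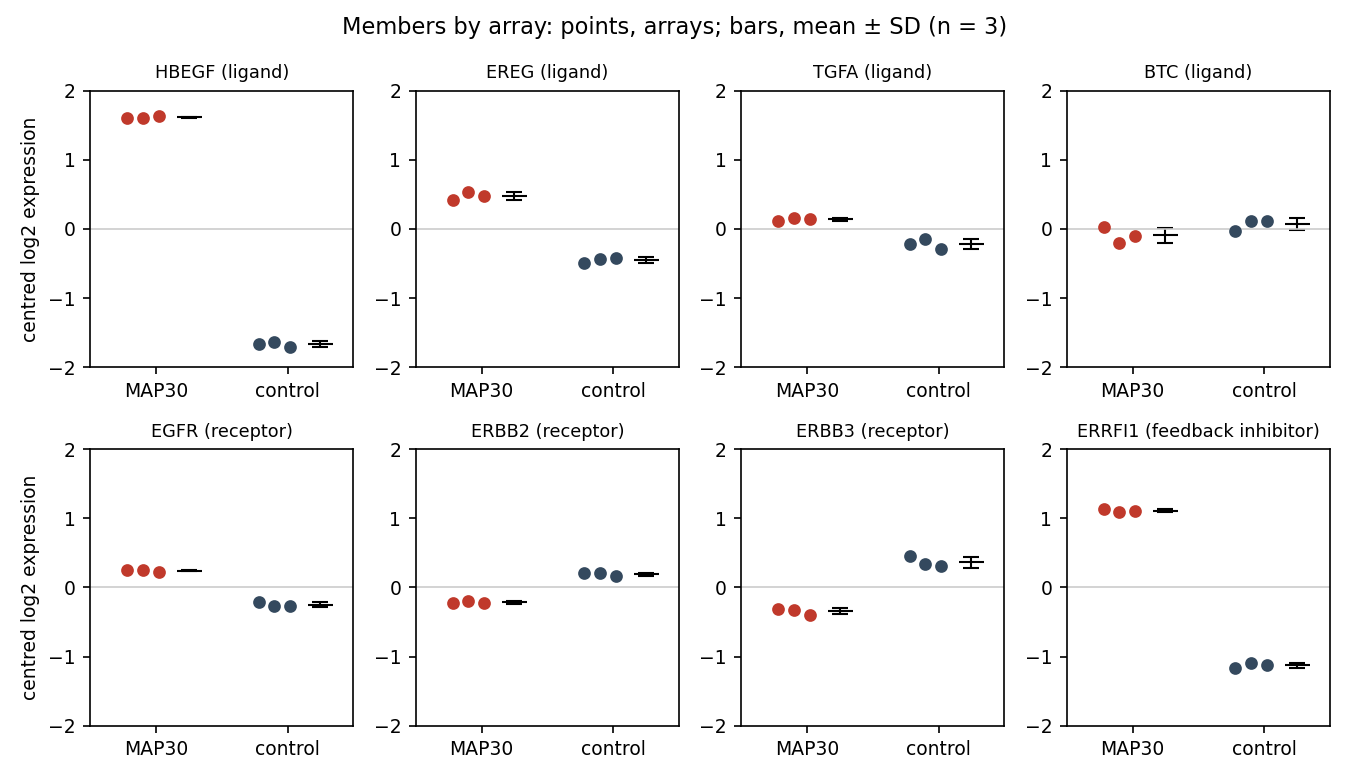
Centred log2 expression (vertical axis) of the 8 measured members on the 3 MAP30 arrays (left in each panel) and the 3 control arrays (right), with the mean and SD of each group beside the points. HBEGF and ERRFI1 are the most widely separated, and BTC is the gene whose groups overlap.

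The 250 bases before the annotated start of these genes were read from RefSeq (GRCh38.p14), in which 8 of the 9 genes had an entry. A gene can have other starts, and which start these cells use was not tested. ERBB3 was the gene not matched. The genes printed are the 3 with the largest rise, the receptor gene that rose and the receptor gene that fell and had an entry. Each is given 5′ to 3′ on the strand of its gene, ending at the base before the start. Capitals mark matches to any of 7 motifs, all read on both strands except the TATA box.
HBEGF, chr5:140346604-140346853, minus strand: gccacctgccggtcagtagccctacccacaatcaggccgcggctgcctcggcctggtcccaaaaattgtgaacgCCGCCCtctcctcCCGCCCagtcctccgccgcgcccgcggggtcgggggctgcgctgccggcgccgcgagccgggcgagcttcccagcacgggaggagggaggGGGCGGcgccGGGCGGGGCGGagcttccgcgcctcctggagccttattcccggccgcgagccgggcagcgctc
ERRFI1, chr1:8026310-8026559, minus strand: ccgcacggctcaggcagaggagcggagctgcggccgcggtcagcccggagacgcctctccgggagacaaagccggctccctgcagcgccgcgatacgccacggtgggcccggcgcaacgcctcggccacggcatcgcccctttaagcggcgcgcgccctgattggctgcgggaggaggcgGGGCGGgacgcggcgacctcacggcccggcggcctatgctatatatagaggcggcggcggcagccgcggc
EREG, chr4:74364895-74365144, plus strand: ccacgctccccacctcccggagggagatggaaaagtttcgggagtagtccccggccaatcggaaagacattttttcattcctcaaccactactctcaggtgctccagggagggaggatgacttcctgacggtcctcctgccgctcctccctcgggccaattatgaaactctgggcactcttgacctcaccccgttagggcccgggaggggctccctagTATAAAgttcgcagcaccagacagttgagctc
EGFR, chr7:55018767-55019016, plus strand: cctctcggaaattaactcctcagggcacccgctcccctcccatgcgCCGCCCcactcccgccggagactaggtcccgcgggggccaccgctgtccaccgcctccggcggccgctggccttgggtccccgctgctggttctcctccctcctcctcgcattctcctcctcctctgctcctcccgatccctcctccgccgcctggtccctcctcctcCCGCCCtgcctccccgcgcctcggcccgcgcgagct
ERBB2, chr17:39687844-39688093, plus strand: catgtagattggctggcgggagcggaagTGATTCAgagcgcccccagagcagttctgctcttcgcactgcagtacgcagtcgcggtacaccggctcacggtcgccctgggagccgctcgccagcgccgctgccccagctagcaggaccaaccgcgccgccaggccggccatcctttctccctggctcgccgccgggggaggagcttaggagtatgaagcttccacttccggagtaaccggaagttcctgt

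The motifs were the GC box (GGGCGG), the TATA box (TATAAA, coding strand), the AP-1 site (TGANTCA), the cyclic AMP response element (TGACGTCA), the EGR site (GCGNGGGCG), the serum response element known as the SRF CArG box and the NF-kB site. Of 35116 windows of 250 bases before annotated starts, 42.6% held a GC box, 6.8% a TATA box, 6.57% an AP-1 site, 1.65% a cyclic AMP response element, 8.41% an EGR site, 1.16% a CArG box and 5.21% an NF-kB site. The HBEGF window held 5 GC boxes, counted on both strands, of which the pair starting at -63 and -58 from the start shared 1 base. ERRFI1 held 1 GC box, at -70, and EGFR held 2, at -204 and -36. EREG held a TATA box at -32. ERBB2 held an AP-1 letter match at -222. The letters of the AP-1, EGR, CArG and NF-kB motifs and of the cyclic AMP response element were not in the windows of HBEGF, ERRFI1 and EREG. A second annotated start of EGFR, not printed, held 2 AP-1 matches and 2 TATA boxes. Among the other windows not printed, the first of TGFA held 3 GC boxes and an NF-kB match at -219. That of AREG held a cyclic AMP response element at -65, a GC box at -9 and a TATA box at -29. The second TGFA window and that of BTC held no match. These are letter matches and not binding sites.

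HBEGF encodes heparin-binding EGF-like growth factor, a ligand of EGFR and ERBB4. Its gene value was 1.61, 1.60 and 1.62 on the MAP30 arrays, against -1.66, -1.63 and -1.71 on the control arrays. The arrays within each group lay close together and the groups were far apart. The log2 fold change was 3.28 ± 0.04 (SE, n = 3 per group; limma adjusted p = 4.31e-09), the 34th largest rise of all genes tested. Both HBEGF probe sets rose, by 3.41 and 3.15 on the log2 scale.

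EREG encodes epiregulin, which also binds EGFR and ERBB4. Its gene value was 0.42, 0.53 and 0.47 with MAP30 and -0.49, -0.44 and -0.42 in control, with no overlap. The log2 fold change was 0.92 ± 0.04 (SE, n = 3 per group; limma adjusted p = 7.08e-07). This mean hides a disagreement between the 4 EREG probe sets. Those named 11732718_at, 11732720_a_at and 11732719_at rose by 1.36, 1.32 and 1.26 on the log2 scale, whereas 11763822_at had a log2 fold change of -0.25 ± 0.06 (SE; limma adjusted p = 0.00847 over all probe sets). The discordant EREG probe set stood at -0.18, -0.07 and -0.09 with MAP30 and at 0.10, 0.07 and 0.24 in control. When arrays were centred on their poly-A control probe sets, which report spiked-in RNA, its difference was -0.09 and did not pass. The median over the 4 EREG probe sets gave 1.25 in place of 0.92.

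TGFA encodes transforming growth factor alpha, a ligand of EGFR. Its gene value was 0.12, 0.16 and 0.14 with MAP30, against -0.22, -0.14 and -0.29 in control, so the groups did not overlap. On the log2 scale the rise was 0.35 ± 0.04 (SE, n = 3 per group; limma adjusted p = 0.000217). Of its 4 probe sets 3 rose, by 0.63, 0.43 and 0.31, and 11745159_a_at was at 0.05, with a 95% confidence interval from -0.12 to 0.23. The rise of 0.31 was in 11728303_at, whose call was lost without MAP30 replicate 2 or 3 or control replicate 2, at 0.29 in each case. The size for TGFA rested on scaling: it was 0.15 with arrays centred on their hybridization control probe sets, another set of spiked-in RNA, still past the threshold. In that scaling 11728303_at stood at 0.10 and did not pass.

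BTC encodes betacellulin, another ligand of EGFR and ERBB4. Its gene value was 0.02, -0.20 and -0.11 with MAP30, against -0.04, 0.11 and 0.11 in control. The highest MAP30 array lay above the lowest control array. The log2 difference was -0.16 ± 0.07 (SE, n = 3 per group; limma adjusted p = 0.0816), with a 95% confidence interval from -0.32 to -0.00. Neither of its 2 probe sets passed. BTC passed as lower without MAP30 replicate 1 (-0.22), without control replicate 1 (-0.21) and with hybridization-control centring (-0.37), and stood at 0.00 with poly-A-control centring.

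EGFR, the receptor of all of these ligands, had gene values of 0.25, 0.25 and 0.23 with MAP30 and -0.21, -0.27 and -0.27 in control. The groups did not overlap, and the log2 fold change was 0.49 ± 0.03 (SE, n = 3 per group; limma adjusted p = 7.12e-06). It was 0.28 with hybridization-control centring. The gene value averages 8 probe sets that differed widely in size. The pair designed on the RefSeq transcript of the full-length receptor, 11725102_at and 11725103_s_at, rose 2.62-fold and 2.21-fold. The first of this pair stood at 0.65, 0.71 and 0.55 with MAP30 and at -0.55, -0.84 and -0.87 in control. The second stood at 0.52, 0.56 and 0.60 with MAP30 and at -0.63, -0.62 and -0.52 in control. Both therefore separated the groups by far more than the spread within a group.

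RefSeq also holds EGFR transcripts that encode truncated forms of the receptor without its membrane anchor and kinase, and 3 EGFR probe sets were designed on those. Of these, 11742247_a_at rose 1.20-fold and 11733760_a_at 1.12-fold, and 11738815_at did not pass, at a log2 fold change of -0.04 with a 95% confidence interval from -0.28 to 0.20. The intervals of the 2 that rose were 0.13 to 0.39 and 0.06 to 0.26. They lay below those of the pair designed on the transcript of the full-length receptor, 1.18 to 1.61 and 1.03 to 1.26. Probe sets of class _a_at match more than one transcript of a gene, so a value cannot be given to a single transcript. Of the remaining 3 EGFR probe sets, 11751983_a_at and 11725104_a_at rose by 0.60 and 0.46, and 11762479_at, at -0.06, did not pass. With hybridization-control centring 11733760_a_at stood at -0.05, 11742247_a_at stood at 0.05, and neither passed, while 11738815_at and 11762479_at passed as lower.

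ERBB2, the receptor without a known ligand, had gene values of -0.23, -0.20 and -0.22 with MAP30 and 0.20, 0.20 and 0.16 in control. All 3 MAP30 arrays were below all 3 control arrays. The log2 fold change was -0.41 ± 0.03 (SE, n = 3 per group; limma adjusted p = 1.8e-05). Hybridization-control centring gave -0.61 and poly-A-control centring -0.24, both past the threshold. Of its 5 probe sets 3 fell, by 0.81, 0.58 and 0.41. The fall of 0.41 was in 11762165_x_at, a class of probe set that can share probes with other genes. Without that class and class _s_at the ERBB2 value was -0.40, still past the threshold. Probe sets 11751416_a_at (-0.18) and 11755005_a_at (-0.05) did not pass. The last of these passed as higher, at 0.12, with poly-A-control centring and as lower, at -0.25, with hybridization-control centring.

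ERBB3, the neuregulin receptor, had the lowest log2 fold change of the members. Its gene value was -0.32, -0.32 and -0.39 with MAP30, against 0.45, 0.34 and 0.30 in control, without overlap. This gave a log2 fold change of -0.71 ± 0.05 (SE, n = 3 per group; limma adjusted p = 6.81e-06). All 3 of its probe sets fell, by 1.16, 0.68 and 0.28. The fall of 0.28 was in 11747025_a_at, which stood at -0.12 and did not pass with poly-A-control centring. The largest of these falls was in 11721445_x_at, a class of probe set that can share probes with other genes. Without that class and class _s_at the ERBB3 value was -0.48, still past the threshold.

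ERRFI1, the inhibitor gene, was measured by a single probe set of class _s_at. Unlike those of ERBB2 and ERBB3, the ERRFI1 value could not be recomputed without that class. Its value was 1.13, 1.09 and 1.10 with MAP30, against -1.17, -1.09 and -1.13 in control. The groups were far apart relative to their spread, and the log2 fold change was 2.24 ± 0.04 (SE, n = 3 per group; limma adjusted p = 9.95e-09). It ranked 159th among all genes from the largest rise down.

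**Figure D2:**
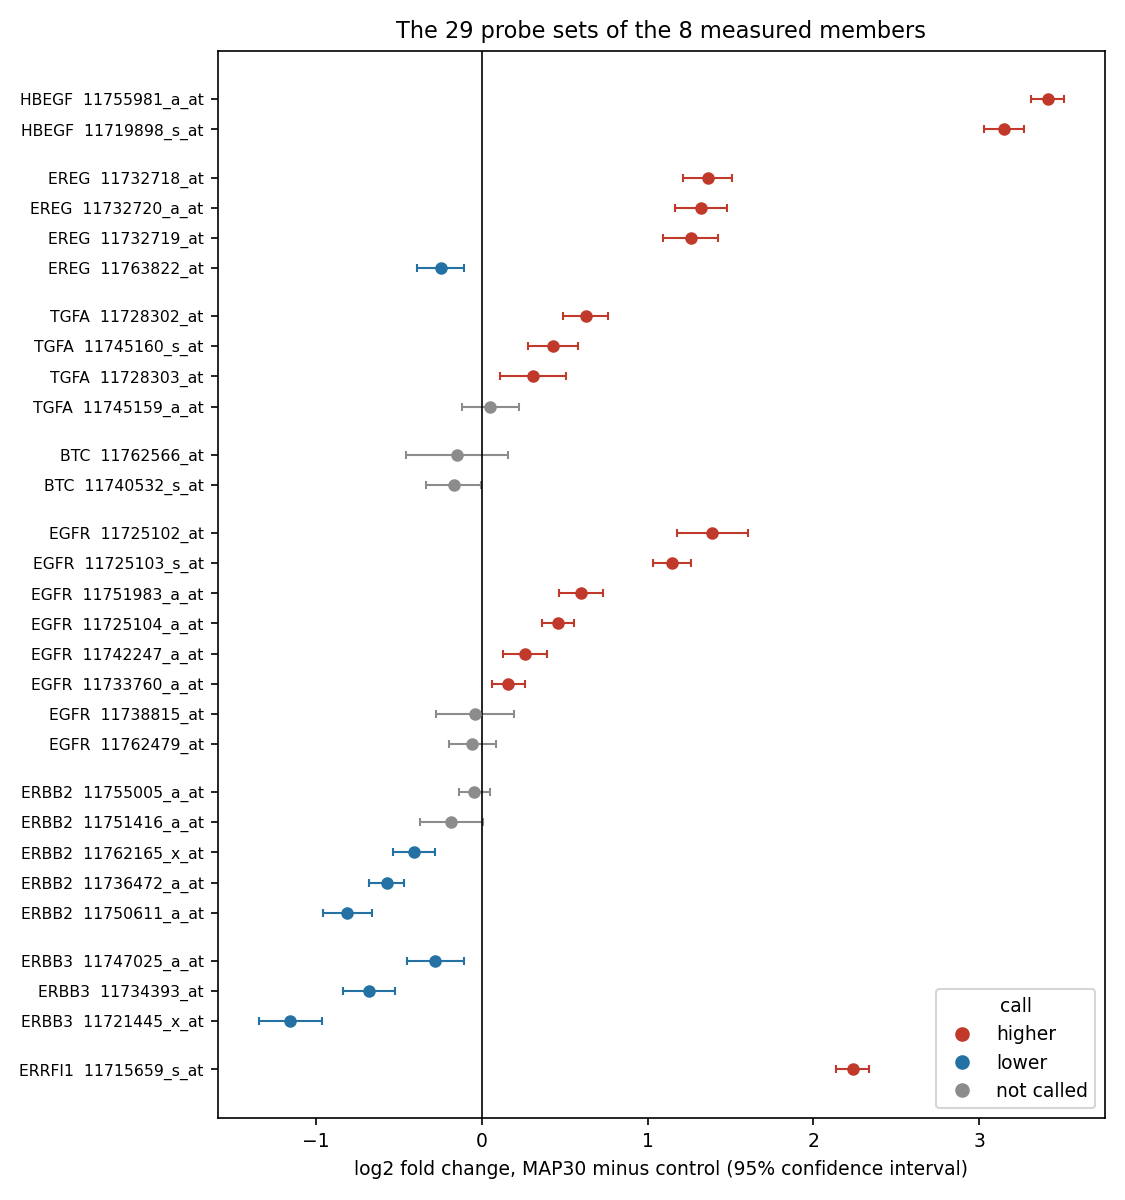
Log2 fold change of MAP30 minus control (horizontal axis, with 95% confidence intervals) for each of the 29 probe sets, grouped by gene and coloured by the limma call over all probe sets. The 8 EGFR probe sets run from -0.06 to 1.39, and 1 of the 4 EREG probe sets lies on the opposite side of 0 from the others.

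Counted by probe set, 15 of the 29 were called higher and 7 lower, where 56.8% of all 44988 probe sets with 1 gene symbol were called, 26.5% as higher and 30.3% as lower. EREG was the member with calls in both directions. Such opposition was found in 850 of the 11730 genes with 2 or more probe sets, or 7.24%. TGFA, EGFR and ERBB2 had some probe sets that passed and some that did not, with no calls in opposite directions, a pattern found in 33.7% of those genes.

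Ordered by log2 fold change, the members ran HBEGF, ERRFI1, EREG, EGFR, TGFA, BTC, ERBB2 and ERBB3. Among neighbours in this order the 95% confidence intervals overlapped for EGFR (0.41 to 0.57) and TGFA (0.25 to 0.46) and for no other pair. The median log2 fold change was 0.64 over the 4 ligands and -0.41 over the 3 receptors, against -0.02 over all genes. The mean over the 4 ligand genes was 0.54, 0.52 and 0.53 on the MAP30 arrays and -0.60, -0.53 and -0.58 on the control arrays. The mean over the 3 receptor genes was -0.10, -0.09 and -0.13 on the MAP30 arrays and 0.15, 0.09 and 0.06 on the control arrays. The receptor mean holds EGFR, which rose, beside ERBB2 and ERBB3, which fell, and its difference moved with scaling, at -0.21 as deposited. Hybridization-control centring gave -0.42 for it, whereas poly-A-control centring gave -0.04. For the ligand mean the differences were 1.10, 0.89 and 1.26 in the same order of scalings. Its largest part is HBEGF (3.28), beside EREG (0.92), TGFA (0.35) and BTC (-0.16). The ligand median and mean cover the defined set only. Outside it the ligand genes NRG1 (1.51), NRG2 (-0.59) and NRG4 (-0.19) were called, and EGF, EPGN and NRG3 were not.

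**Figure D3:**
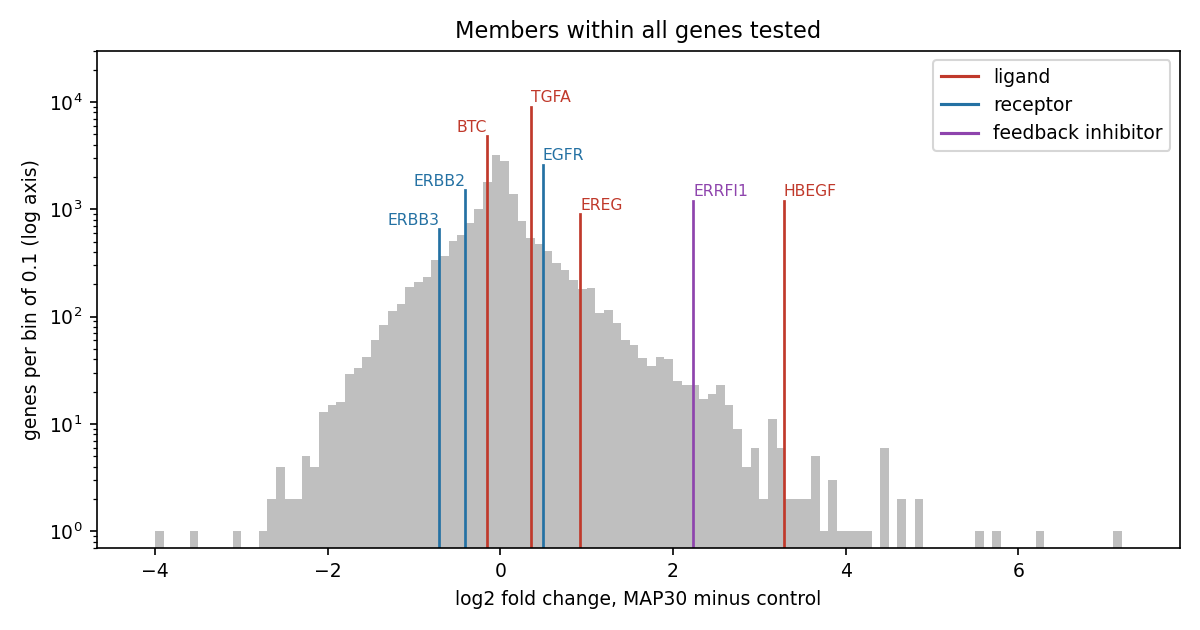
Number of genes per bin of 0.1 (vertical log axis) by log2 fold change of MAP30 minus control (horizontal axis) over all 18132 genes, with the 8 measured members as lines coloured by role. HBEGF (3.28) and ERRFI1 (2.24) lie in the upper tail, and the other members lie between -0.71 and 0.92.

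The scale of the arrays bears on the small differences. Over all genes, the median difference was -0.23 when arrays were set to their 18 hybridization control probe sets and 0.14 when they were set to their 24 poly-A control probe sets. The share of called genes that were higher was 46.8% as deposited, 21.1% in the first of these and 70.3% in the second. The 7 called members kept direction and call under both. The log2 ratio of 3' over 5' control probe sets, a value related to RNA integrity, was higher with MAP30 by 0.158 for ACTB (SD 0.0068 with MAP30 and 0.0208 in control, n = 3 each) and by 0.0426 for GAPDH, with an exact permutation p of 0.1 for each, two-sided, the smallest that 3 arrays against 3 allow. The part of this shift in the members' results was not tested. The SD of the difference between arrays was 0.131 to 0.147 within groups and 0.677 to 0.681 between groups.

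**Figure D4:**
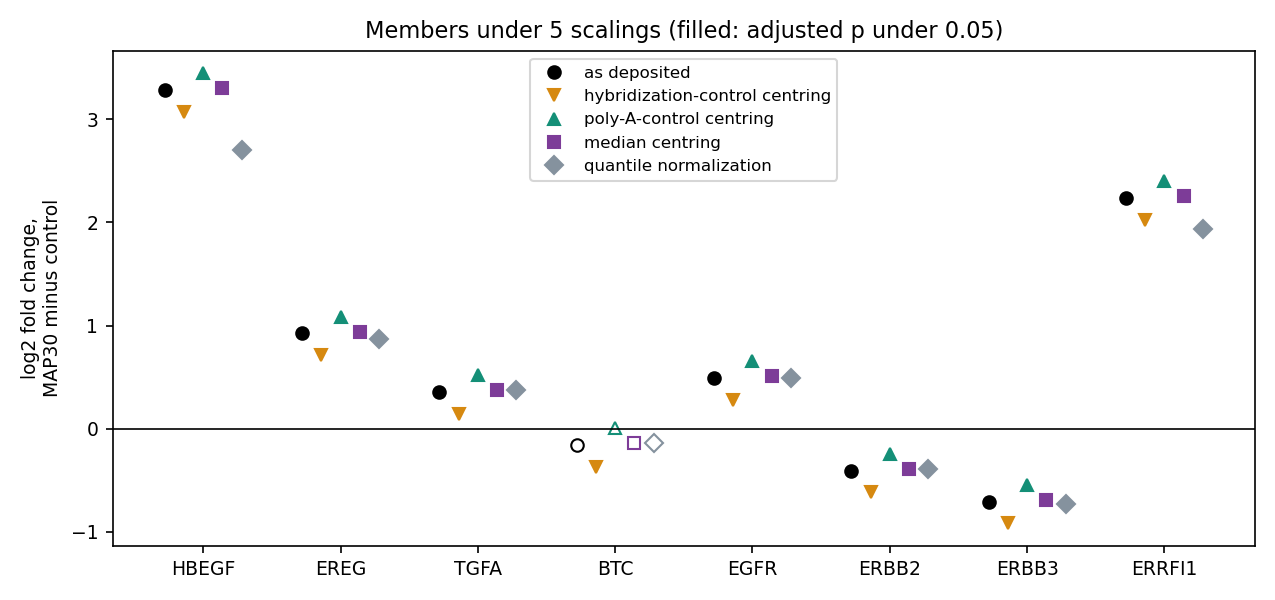
Log2 fold change of MAP30 minus control (vertical axis) for each measured member under 5 scalings of the arrays, with filled symbols where the adjusted p was under 0.05. BTC runs from -0.37 to 0.00, and the other 7 members keep their side of 0.

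Other members of the ligand and receptor families were taken from a list of 7 genes. Of these 1 was higher and 2 lower, where 26.9% of all genes were higher and 30.6% lower. With hybridization-control centring 1 was higher and 6 lower, where 3087 of all 18132 genes were higher and 11558 lower. With poly-A-control centring 5 were higher and 1 lower, where 8906 of all genes were higher and 3754 lower. NRG1, which encodes neuregulin 1, a ligand of ERBB3 and ERBB4, rose 2.85-fold. Its gene value was 0.79, 0.72 and 0.77 with MAP30, against -0.71, -0.81 and -0.73 in control, without overlap. On the log2 scale NRG1 rose by 1.51 ± 0.04 (SE, n = 3 per group; limma adjusted p = 7.39e-08), and 7 of its 8 probe sets were called higher and none lower. NRG2 was 1.50-fold lower. NRG4 was 1.14-fold lower (log2 fold change -0.19), a call lost without MAP30 replicate 1 (-0.19) or 2 (-0.14), without control replicate 1 (-0.21) or 3 (-0.16) and with poly-A-control centring (-0.03). EGF (-0.03), EPGN (0.005), NRG3 (0.03) and ERBB4 (-0.03) did not pass. EPGN, EREG, AREG and BTC follow one another as protein-coding genes on chromosome 4, and the 3 measured genes of this run had log2 fold changes of 0.92 for EREG, 0.005 for EPGN and -0.16 for BTC.

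Of 14 genes of ligand shedding and trafficking 3 were higher and 8 lower (median -0.21 on the log2 scale), where 26.9% of all genes were higher and 30.6% lower. With hybridization-control centring 2 were higher and 11 lower (median -0.42), where 3087 of all 18132 genes were higher and 11558 lower. With poly-A-control centring 6 were higher and 5 lower (median -0.05), where 8906 of all genes were higher and 3754 lower. TIMP3, a secreted inhibitor of ADAM17, was 3.48-fold lower. ADAM10, a protease that releases EGF and betacellulin, was 2.03-fold lower, with values of -0.56, -0.53 and -0.45 with MAP30 and 0.50, 0.49 and 0.53 in control. Among other members of the ADAM family, ADAM15 was 1.79-fold lower, while ADAM8 rose 1.81-fold and ADAM12 1.56-fold, the last with 4 probe sets higher and 1 lower. ADAM17, the main protease that releases HBEGF, TGFA and EREG, was chosen for mention after its value was seen and rose 1.15-fold, with a log2 fold change of 0.20 ± 0.04 (SE, n = 3 per group; limma adjusted p = 0.00486). With hybridization-control centring ADAM17 stood at -0.0081 and did not pass.

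Of 27 listed adaptors and effectors 20 were measured, 3 of them higher and 13 lower (median -0.26). The shares over all genes were 26.9% higher and 30.6% lower. Hybridization-control centring gave 3 higher and 17 lower, and poly-A-control centring 5 higher and 10 lower. EPS8, an EGFR substrate that acts on actin, rose 2.94-fold, and SOS2, an exchange factor for RAS, rose 1.62-fold. SOS1, its close relative, was 1.59-fold lower. PLCG1, a phospholipase bound by active EGFR, was 1.93-fold lower, and MAPK3, which encodes ERK1, was 1.89-fold lower. Of 24 listed negative regulators and endocytosis genes 22 were measured, 11 higher and 7 lower (median 0.07). The balance of this list turned with scaling, to 9 higher and 11 lower with hybridization-control centring (median -0.13), against 14 higher and 7 lower with poly-A-control centring (median 0.24). PTPN1, a phosphatase of EGFR, rose 1.98-fold, SOCS4 1.86-fold, the endosomal deubiquitinase gene STAMBP 1.84-fold and LRIG2 1.72-fold. LRIG1, a membrane protein that restrains ERBB receptors, was 1.68-fold lower. Over the 4 lists 18 of 63 genes were higher and 30 lower as deposited. With hybridization-control centring 15 were higher and 45 lower, where 3087 of all 18132 genes were higher and 11558 lower. With poly-A-control centring 30 were higher and 23 lower, where 8906 of all genes were higher and 3754 lower.

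**Figure D5:**
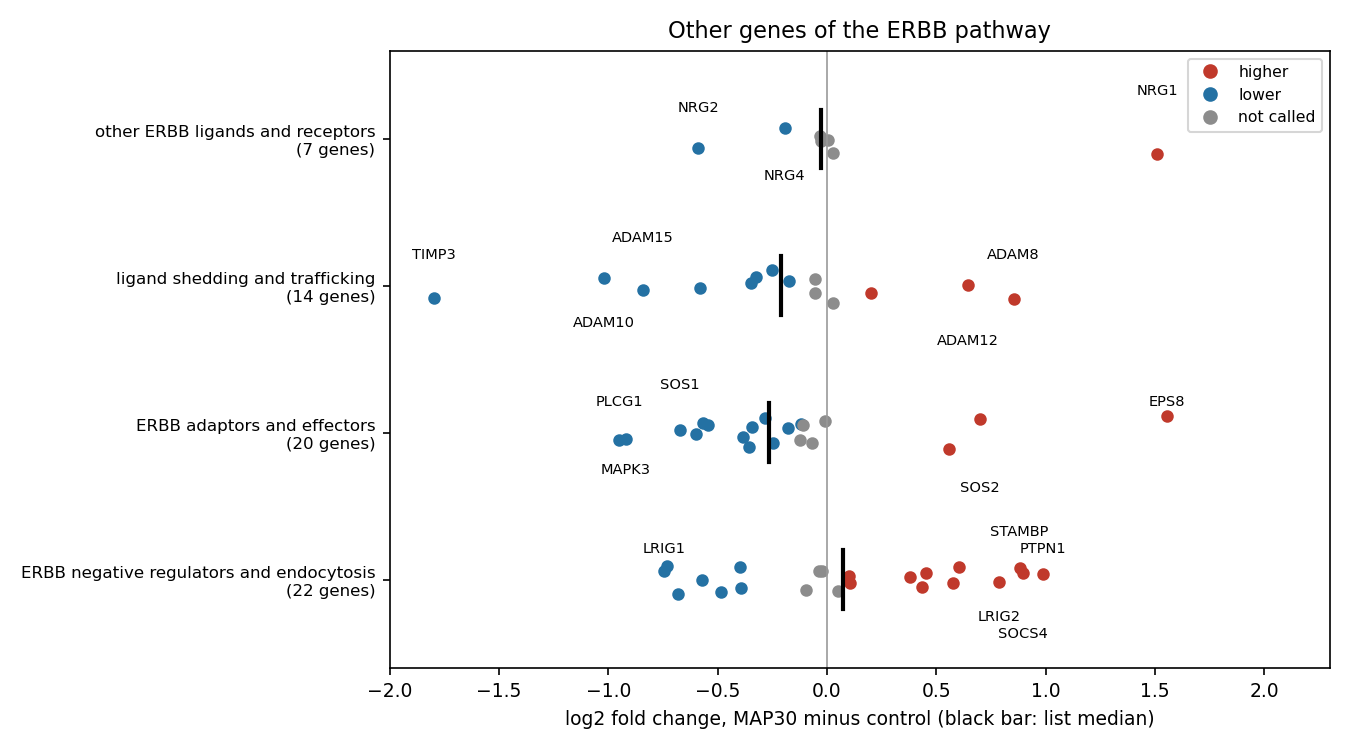
Log2 fold change of MAP30 minus control (horizontal axis) for the 63 measured genes of 4 ERBB pathway lists, coloured by call, with the list median as a black bar and the largest called genes of each list named. NRG1 (1.51) and EPS8 (1.55) are the highest and TIMP3 (-1.80) the lowest.

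The genes whose values were nearest to those of HBEGF over the 6 arrays, by root mean square difference, were OSGIN1 (0.0476), KRTAP2-3 (0.0518) and ARRDC4 (0.055), with log2 fold changes of 3.26, 3.35 and 3.24. Nearest to ERBB3 were PXMP4 (0.0312), NINJ1 (0.0325) and WDHD1 (0.0356), with log2 fold changes of -0.73, -0.72 and -0.68. With 2 groups of arrays this likeness reflects mostly the size of the group difference. Markers of cell types moved in part. Of 12 measured urothelial markers 2 were higher and 3 lower, and of 5 leukocyte markers 1 was higher and 1 lower. Of 5 endothelial markers 2 were higher and of 6 fibroblast markers 1, where 57.5% of all genes were called. The called urothelial markers were GATA3 (2.12), PPARG (0.91), KRT7 (-1.03), KRT8 (-0.47) and FOXA1 (-0.16). The other called markers were ITGAM (2.76), CD14 (-0.26), KDR (0.22), TEK (0.14) and COL1A1 (0.14). The marker counts rested on scaling, and those of endothelial and fibroblast markers also on single arrays. In each fit without 1 array the urothelial count stayed at 2 higher and 3 lower, and the leukocyte count at 1 and 1. With hybridization-control centring no endothelial or fibroblast marker was higher, and 3 and 5 were lower, beside 2 urothelial markers higher and 8 lower and 1 leukocyte marker higher and 4 lower. With poly-A-control centring all 5 endothelial and all 6 fibroblast markers were higher. Beside them 4 urothelial markers were higher and 2 lower, and 4 leukocyte markers were higher and 0 lower. Of all 18132 genes, 3087 were higher and 11558 lower with hybridization-control centring, and 8906 and 3754 with poly-A-control centring. The endothelial calls were lost in each fit without 1 array except that without MAP30 replicate 2, and the fibroblast call in each except those without MAP30 replicate 1 or control replicate 3. The part of these markers in the members' results was not tested.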

How the data were processed

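RNA was measured on 6 arrays, 3 of T24 cells given MAP30 and 3 of control cells. Per the labels' protocols, total RNA was amplified with a 3' in vitro transcription kit and labelled with biotin. The authors deposited a complete table of log2 values, 49395 probe sets long, each row centred so that its median over the arrays is at most 5.0e-07 from 0. RMA and MAS5 are named in the submitters' processing notes, with no role stated. Centring removed levels, so no filter on dim probe sets was possible. Precision is limited by the number of arrays.

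The platform's annotation paired probe sets with genes: 44988 had exactly 1 gene symbol, 1832 several and 2473 none, and 102 were controls. Probe sets with 1 symbol were averaged per gene. Genes and, apart from them, probe sets were compared with limma (version 3.58.1, R 4.3.3) by lmFit and eBayes, two-sided, with Benjamini-Hochberg adjustment over the whole table. The alternatives were other gene values, scalings, variance models, a replicate block and leaving out each array. Simulated data of the same 18132 genes for MAP30 against control had 50 genes changed at each size. Recovery was 74% at 1.25-fold, 96% at 1.5-fold, 98% at 2-fold and 100% at 4-fold, with 2 false calls. Far fewer genes were changed there than the 57.5% called in the real arrays, so these rates may not carry over.

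The members and lists were chosen with earlier results of these data known, so their counts are descriptions. All members were named, with the up to 5 called genes of largest change in each of 4 pathway lists and, for HBEGF and ERBB3, the 3 nearest genes over the arrays. Of the listed genes 9 were not analysed here. Tables were prepared with Python 3.11.15 and pandas 2.3.3 and drawn with matplotlib 3.10.9.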

Additional observations from a re-analysis of the deposited data

How the results depend on the processing

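Gene results were recomputed under 15 alternatives, and probe set results under the 13 of these that leave probe sets apart. HBEGF, EREG, TGFA, EGFR, ERBB2 and ERBB3 kept direction and call under all of them, and ERRFI1 under the 14 that could be run, since it has no probe set of class _at or _a_at. BTC passed with hybridization-control centring (-0.37), without MAP30 replicate 1 (-0.22) and without control replicate 1 (-0.21); over the 6 fits that each leave out 1 array it ran from -0.22 to -0.11, and the other 4 did not pass. With hybridization-control centring 3087 genes were higher and 11558 lower, and 13 member probe sets were lower; EGFR probe set 11733760_a_at stood at -0.049 and ADAM17, whose alternatives were chosen after seeing the data, at -0.0081. With poly-A-control centring 8906 genes were higher, 30 genes of the pathway lists were higher, and ERBB2 probe set 11755005_a_at stood at 0.12. The replicate numbers showed no sign of pairing: deviations of same-numbered arrays correlated at -0.0396, 0.0702 and 0.0106. Those of differently numbered arrays ran from -0.126 to 0.113. With so few arrays these values cannot settle whether the arrays were paired. With the replicate block 4838 genes were higher and 5483 lower, and no member's call changed. The cause of these changes was not tested. A probe set's signal over background cannot be judged from centred values, so small differences of dim probe sets cannot be told from those of bright ones.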
